A study of Drosophila melanogaster with 87 samples.

Results

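The dpr and DIP genes encode cell surface proteins of the immunoglobulin superfamily that fly neurons carry on their axons and dendrites. Dpr proteins bind DIP proteins on the partner cell, and matched pairs are known for guiding which neurons form synapses with each other in the visual system, the mushroom body and at the neuromuscular junction. The family was taken as every row of the gene table whose symbol is dpr with a number or DIP with a Greek letter. This rule found 32 genes, 21 dpr and 11 DIP, of 17562 genes (0.182%). The rule itself uses no measured value.

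The family was followed through 87 libraries of Drosophila melanogaster males in which a ubiquitous driver, DaGal4, expressed an RNAi transgene in all groups. The RNAi was directed against mCherry (the control), against Mettl3, the catalytic subunit of the enzyme that writes N6-methyladenosine (m6A) into mRNA, or against the nuclear m6A reader that the labels call Ythdc (gene row Ythdc1). Brains were sequenced under basal conditions or directly after heat stress (HS, 30 min at 38.5 °C) with 6 control and 6 Mettl3 RNAi replicates in each state, and after 6 h of recovery (2 control and 3 Mettl3 RNAi) and 24 h of recovery (3 and 3). A separate brain experiment compared Ythdc RNAi with its own control, 3 replicates for each genotype in basal and HS. For m6A immunoprecipitation (m6A-IP), polyA+ RNA of control and Mettl3 RNAi heads was pooled, 200 heads a pool, in basal and HS, and split into an IP and an input library. One antibody (SYS) had 2 pools for each genotype and state and the other (NEB) had 3. The labels put the collection of the males at 1 to 2 days after eclosion, while the methods describe heat stress of 6-day-old flies, so the age at sampling is not certain. Since DaGal4 acts in every tissue and throughout development, changes in Mettl3 RNAi flies cannot be placed in neurons or in the adult alone.

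Brain libraries held 19356178 to 65901563 counted reads, SYS libraries 12035644 to 19583593, NEB inputs 12366260 to 15619046 and NEB IPs 1318964 to 10525659, so the NEB IPs are the least precise. Low depth fell mainly on Mettl3 RNAi. Its NEB IPs had median totals of 1487212 in basal and 2527246 in HS, against 10250218 and 4826961 in control. The RNAi targets were reduced in the groups labelled for them. Mettl3 was at 2.66 ± 0.30 CPM (counts scaled to a common library size, SD, n = 6) in basal control brains and at 0.803 ± 0.21 (n = 6) in Mettl3 RNAi brains, and Ythdc1 was at 150.5 ± 36.3 (n = 3) in the controls of its own experiment and at 33.0 ± 0.27 (n = 3) in Ythdc RNAi brains. Ythdc1 was also lower in Mettl3 RNAi brains, 126.2 ± 16.3 against 202.5 ± 19.8 CPM (n = 6 each), so these flies carry less of the reader as well. The summed level of 6 neuron markers was 6428 to 10120 CPM in basal control brains and 3010 to 5845 CPM in basal control head inputs. The 8 retina markers summed to 26670 to 42960 CPM in the same brains, so the labelled brain samples also held photoreceptor RNA. In basal control head inputs, which were scaled separately, these markers summed to less, 17800 to 18060 CPM with SYS and 20110 to 20230 CPM with NEB. In bulk RNA, fewer cells of a type and less RNA per cell cannot be told apart.

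Fly m6A is known to fall largely in 5′ untranslated regions, often in the short motif AAACA. On the transcript strand, 25 of 32 members (78.1%) held at least 1 copy in their annotated 5′UTR, as did 54.0% of the 9191 tested genes with an annotated 5′UTR. The members' 5′UTRs are longer, with a median of 684.5 bases against 209.0 bases. Pooled over all 5′UTR bases, the motif stood at 3.66 copies per kb in members and 3.90 per kb in tested genes, whereas the median gene had 3.79 per kb among members and 1.83 per kb among tested genes. The following 30-base stretches of 5′UTR (BDGP6, the dm6 build, sequence from RefSeq, 5′ to 3′ on the transcript strand, AAACA in capitals with overlapping copies run together) are shown so that 4 members whose IP enrichment depended on Mettl3 can be set beside 3 whose enrichment did not pass that test, as described below. The first 4 come from chr2L:10963508-10963537 (minus strand), chr3L:5429163-5429192 (plus), chr4:253160-253189 (minus) and chr3L:9974933-9974962 (plus), and the last 3 from chr3R:15076159-15076188 (minus), chrX:3568746-3568775 (minus) and chr3R:12158545-12158574 (minus).
dpr2: ggattgAAACAcagaAAACAAAACAcattt
DIP-delta: gaaAAACAacagccgcggAAACAcaacaat
dpr7: aaAAACAcagatctaaataccgaaAAACAg
dpr6: acgcggAAACAacAAACAatAAACAattcg
dpr9: ccAAACAtcgaaaaatttgcaacaAAACAg
DIP-alpha: ccattgAAACAagttcataAAACActtaac
dpr15: ccgaacgcagattAAACAtcctccacggag
These stretches were picked because they hold the motif, and members without a copy gave no stretch. They therefore cannot show how common the motif is among members of either kind. No stretch was drawn from dpr1 or dpr13, although both hold copies. The motif itself was counted over the whole annotated 5′UTR of each member. It was present in the 5′UTR of 16 of the 21 members that passed all tests of Mettl3 dependence (76.2%) and of 7 of the 8 members that passed none (87.5%), with a median of 3 copies (4.27 per kb) in the first set and 1.5 copies (3.06 per kb) in the second. Of all 874 genes with lower SYS enrichment in basal Mettl3 RNAi heads and an annotated 5′UTR, 89.8% held the motif, in 5′UTRs with a median of 766.5 bases. The members dpr5, dpr12, dpr20, dpr21 and DIP-eta, all in the first set, had no copy. A copy of the motif is a match of letters and not a measured m6A site.

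Levels differed widely between members. Expressed per kb of exon in basal control brains, dpr7 was highest at 91.3 ± 4.11 CPM per kb (SD, n = 6). It was followed by dpr12 at 77.3 ± 8.81, dpr21 at 51.4 ± 5.60 and dpr9 at 42.1 ± 5.18 CPM per kb. dpr12 is the partner of DIP-delta in the mushroom body, and DIP-delta itself stood at 12.5 ± 1.95 CPM per kb. DIP-alpha, the partner of dpr6 and dpr10, was at 3.19 ± 0.598 CPM per kb, below dpr10 (20.3 ± 1.94) and dpr6 (10.5 ± 1.51). The lowest member was DIP-iota at 0.229 ± 0.0987 CPM per kb, which passed the filter on low counts in 10 of 23 comparisons. The 15 highest members were all dpr genes, and the highest DIP was DIP-gamma at 19.4 ± 1.46 CPM per kb. The steps from dpr7 down to dpr9 and from DIP-lambda down to DIP-iota were larger than 1 SD. Between dpr9 and DIP-lambda adjacent members differed by less than the larger of their SDs, as dpr17 and dpr5 did (16.5 ± 1.67 and 16.5 ± 0.811), except at the steps from dpr14 to dpr1, dpr20 to dpr3, dpr3 to dpr10 and DIP-gamma to dpr15. In sum the family made up 2657 ± 208.7 CPM of basal control brains (n = 6), and 1550 CPM (mean of 2 pools) and 1261 ± 67.0 CPM (n = 3) of SYS and NEB head inputs, tables that were scaled separately.

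The members are spread over the genome. Of the 32 genes, 9 lie on chromosome arm 2L, 5 on 2R, 4 on 3L, 8 on 3R, 5 on X and 1, dpr7, on the fourth chromosome. dpr6 and dpr10 lie close together on 3L, dpr4 and dpr5 as well as dpr15 and dpr17 on 3R, and DIP-eta and DIP-theta on 2L. The exons of 6 members overlap exons of another gene, most for dpr4 (15.7% of its exon length, with an antisense RNA) and DIP-theta (12.6%, with a long noncoding RNA on the same strand). Reads in such stretches match more than 1 gene and may be missing from these counts. For overlaps on opposite strands this is not certain, since the use of strand in counting is not stated.

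Most dpr and DIP transcripts were retained by the m6A antibodies. Relative to input in basal control heads, 22 of 32 members were called higher in IP with SYS (37.4% of all genes tested) and 24 of 32 with NEB (40.2%), and 25 of 32 values were positive with each antibody (46.4% and 46.3% of all genes). Of these, 21 were called higher with both antibodies. The median log2 enrichment of the members was 0.64 with SYS and 1.58 with NEB, beside -0.07 and -0.18 over all genes tested. dpr13, dpr17, dpr6 and dpr1 were the most enriched with SYS, at 1.58 ± 0.05, 1.51 ± 0.05, 1.48 ± 0.06 and 1.19 ± 0.05 on the log2 scale (± SE, 2 pools), and these 4 also had the highest NEB values, 3.41 ± 0.14, 2.88 ± 0.10, 3.14 ± 0.14 and 3.10 ± 0.11 (3 pools). With SYS 6 members were called lower in IP than in input (41.7% of all genes), namely dpr14, dpr18, dpr21, DIP-alpha, DIP-kappa and DIP-lambda, and 3 of these, dpr14, dpr18 and DIP-lambda, were also called lower with NEB (46.6%). Across the 32 members the SYS and NEB enrichments had a Pearson r of 0.922 (Spearman 0.924), values that come from separate pools but share the genes' length and base composition. The SYS calls rest on pairing each IP with its own input. With 2 pools and no such pairing, 13 members were called, 12 of them higher.

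**Figure D1:**
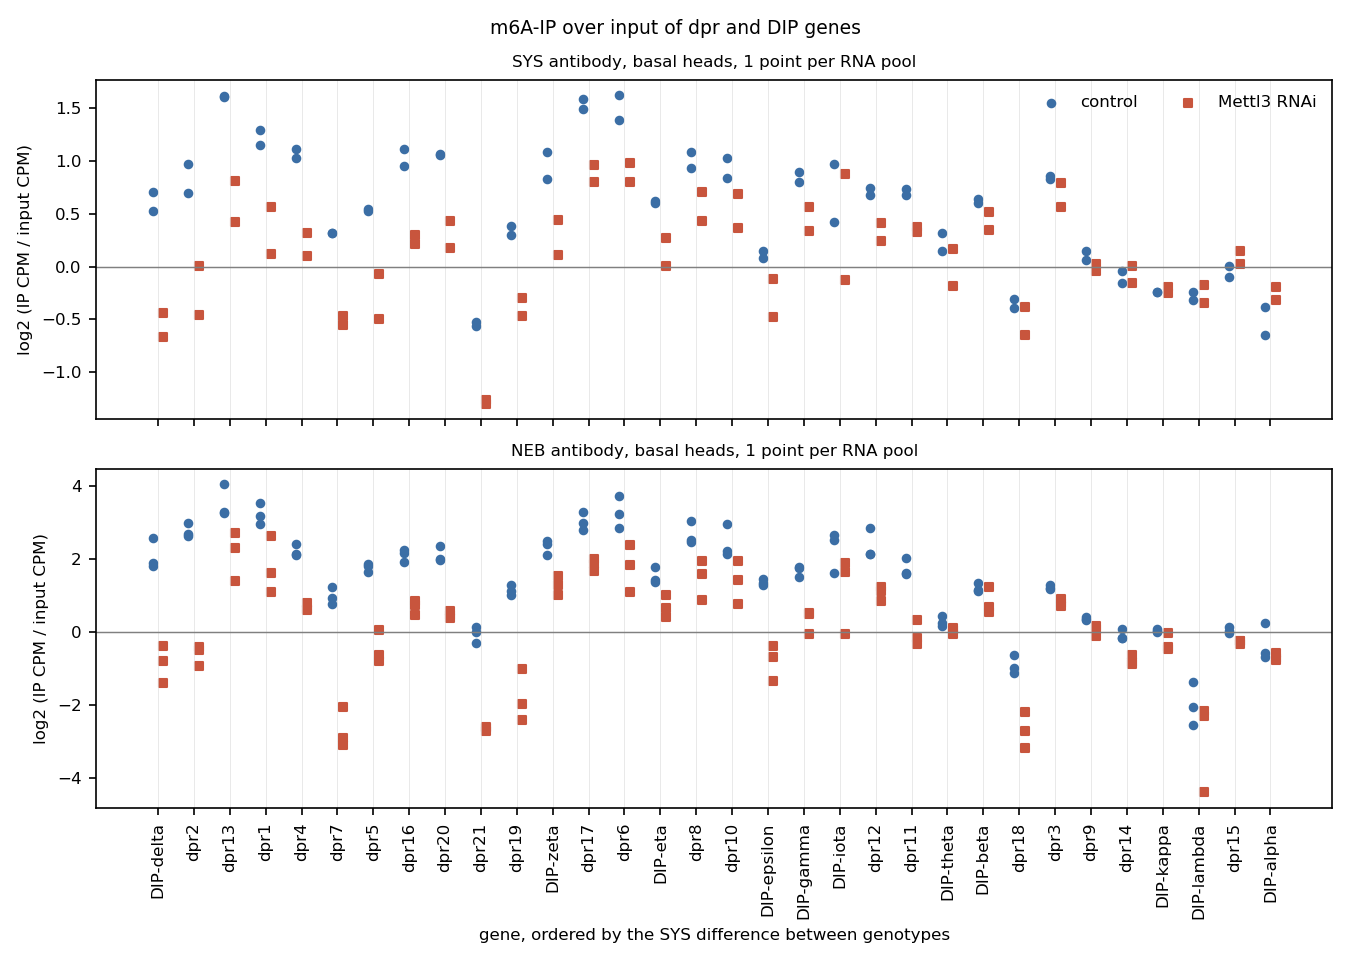
Log2 ratio of IP CPM to input CPM (y axis) in each RNA pool of basal heads for the 32 members (x axis), with SYS above and NEB below on different y scales. Blue circles are control pools and red squares are Mettl3 RNAi pools. The Mettl3 RNAi pools lie below all control pools for 24 of 32 members with SYS and for 28 of 32 with NEB. This separation was not counted over all genes, so these counts have no background beside them. With so few pools it can also arise by chance, and it is not a call of the test.

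The enrichment fell in Mettl3 RNAi heads. Mettl3 dependence, here the log2(IP/input) of Mettl3 RNAi minus that of control, is negative where enrichment was lost and was tested within pools. The labels name no antibody for both basal SYS IP pools of Mettl3 RNAi, whose titles call them SYS IPs, as does the library list published with the study, and these were used by title. The SYS test after HS and both NEB tests do not include them. With SYS in basal heads 21 of 32 members were called below 0 and none above 0 at a Benjamini-Hochberg adjusted p under 0.05 in edgeR's quasi-likelihood test (9.02% and 1.4% of all genes tested). The members' median was -0.44 against 0.06 over all genes. After HS the SYS count was 22 of 31 (10.5%), and with NEB it was 23 of 32 in basal (13.6%) and 23 of 32 in HS (13%), with none called above 0 in any of the 4 tests (1.72% of all genes in SYS HS, 0.687% in NEB basal and 0.916% in NEB HS). The same 21 members passed all 4 tests, 16 dpr (dpr1, 2, 4 to 8, 10 to 13, 16, 17 and 19 to 21) and 5 DIP (gamma, delta, epsilon, zeta and eta). dpr18 passed 3 of them, dpr14 and DIP-beta passed 1 each, and dpr3, dpr9, dpr15, DIP-alpha, DIP-theta, DIP-iota, DIP-kappa and DIP-lambda passed none. Without the pairing of IP and input within a pool, no member was called with SYS in basal or HS heads, although 14 of 32 had an unadjusted p under 0.05 in basal. The sums of 6 neuron markers in the SYS IP libraries were 7610 to 9519 CPM in control and 8959 to 9120 CPM in Mettl3 RNAi pools. In NEB IPs they were 10410 to 13750 CPM and 9200 to 15330 CPM. All 32 members together made up 2544 CPM of the control SYS IPs and 1986 CPM of the Mettl3 RNAi SYS IPs (means of 2 pools each).

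DIP-delta, the DIP of the mushroom body pair with dpr12, had the lowest SYS value. Its log2(IP/input) was 0.527 and 0.706 in control and fell to -0.438 and -0.669 in Mettl3 RNAi. The groups did not overlap, and the difference was -1.20 ± 0.12 (adjusted p = 1.06e-05, edgeR). With NEB its control pools were at 1.895, 1.812 and 2.569 and its Mettl3 RNAi pools at -0.804, -0.389 and -1.401, a difference of -2.88 ± 0.24. With both antibodies all control pools lay above 0 and all Mettl3 RNAi pools below it, where 0 is set by the scaling to the other genes.

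dpr2 behaved alike, with SYS values of 0.699 and 0.972 in control and 0.002 and -0.462 in Mettl3 RNAi (-1.10 ± 0.14, adjusted p = 9.24e-05, edgeR). Its NEB difference was -3.30 ± 0.16, from 2.638, 2.681 and 3.006 to -0.493, -0.403 and -0.922. Those NEB Mettl3 RNAi IPs held only 168, 29 and 20 reads of dpr2. The Mettl3 RNAi pools lay below 0, apart from the first SYS pool at 0.002.

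dpr13 and dpr1 kept part of their enrichment. dpr13 went from 1.607 and 1.612 to 0.809 and 0.423 with SYS (-1.003 ± 0.103, adjusted p = 1.24e-05, edgeR). dpr1, the founding member named for a defective proboscis extension response to salt, went from 1.151 and 1.291 to 0.562 and 0.117 (-0.90 ± 0.11, adjusted p = 8.70e-05). All Mettl3 RNAi pools of both genes stayed above 0, with NEB values of 1.399, 2.711 and 2.301 for dpr13 and 1.090, 2.639 and 1.611 for dpr1.

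dpr7 had the lowest NEB value of all members, -3.35 ± 0.20, with control pools at 1.235, 0.778 and 0.921 and Mettl3 RNAi pools at -2.062, -3.112 and -2.923. The IPs of these Mettl3 RNAi pools held only 177, 13 and 14 of its reads. With SYS, dpr7 had a difference of -0.84 ± 0.08. It is also the member with the highest level per kb. dpr21 passed although it was not enriched over input in control heads, as did dpr18 in 3 of the 4 tests. The SYS control pools of dpr21 stood at -0.566 and -0.526 and its Mettl3 RNAi pools at -1.298 and -1.261 (-0.74 ± 0.10, adjusted p = 0.000175, edgeR), and with NEB its control pools were near 0 (0.148, -0.314 and -0.009) and the Mettl3 RNAi pools at -2.627, -2.615 and -2.713.

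**Figure D2:**
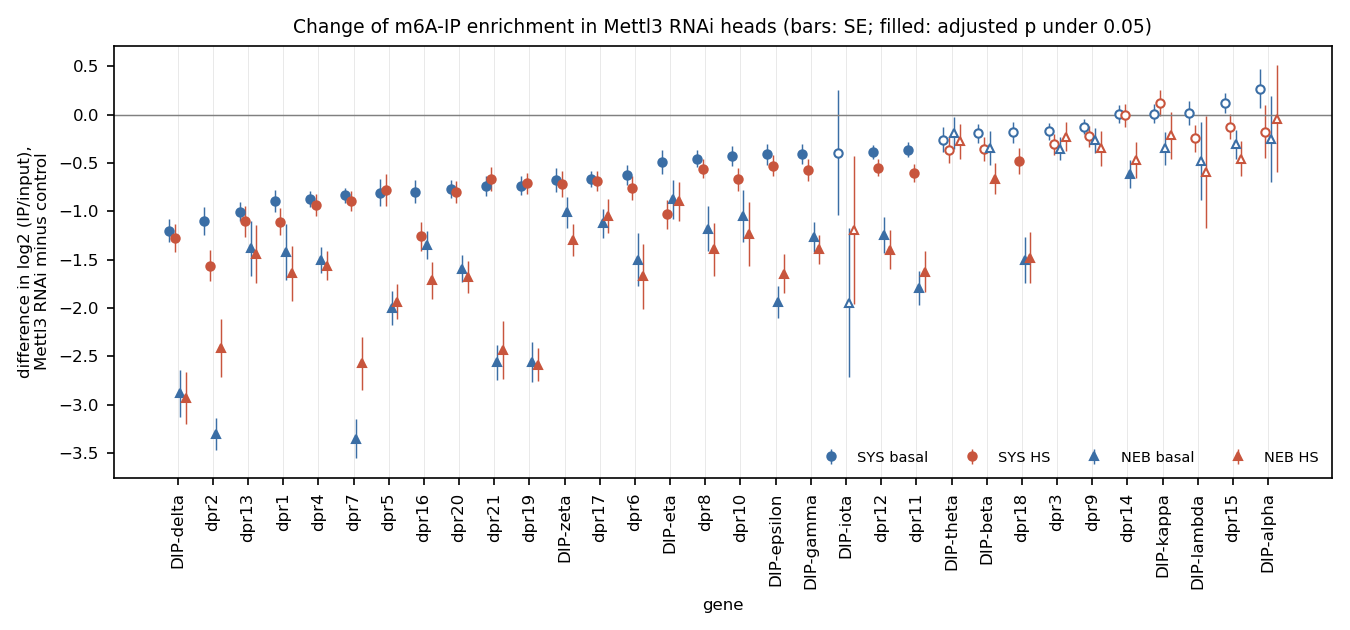
Mettl3 dependence, the log2(IP/input) of Mettl3 RNAi heads minus that of controls (y axis), for each member (x axis, ordered by the SYS basal value) in 4 tests, SYS (circles) and NEB (triangles) in basal (blue) and HS (red). Bars are SE, and filled symbols passed an adjusted p under 0.05, which 21 members did in every test.

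The known binding partners did not always share this dependence. DIP-alpha was not enriched, with SYS control pools at -0.380 and -0.651 and Mettl3 RNAi pools at -0.192 and -0.320, a difference of 0.27 ± 0.20 (adjusted p = 0.454, edgeR). Its partners dpr6 and dpr10 were both enriched and both passed. dpr6 went from 1.392 and 1.622 to 0.983 and 0.805 (-0.63 ± 0.10, adjusted p = 0.000772), and dpr10 from 0.844 and 1.030 to 0.686 and 0.370 (-0.43 ± 0.11, adjusted p = 0.0154), a call lost in 3 of 9 alternative settings. Counts of DIP-alpha were low in heads and its NEB difference had an SE of 0.45, so a smaller loss was not detectable at this depth.

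dpr11 and DIP-gamma, a pair known from the medulla of the visual system, both passed. dpr11 had SYS values of 0.679 and 0.733 in control and 0.379 and 0.326 in Mettl3 RNAi (-0.36 ± 0.08, adjusted p = 0.00625, edgeR). DIP-gamma had 0.798 and 0.893 in control and 0.57 and 0.34 in Mettl3 RNAi (-0.41 ± 0.10, adjusted p = 0.0158), a call that was lost in 5 of 9 alternative settings, namely DESeq2, the fit without the pairing, and leaving out Mettl3 RNAi pool 2, control pool 1 or control pool 2 (-0.50 to -0.32 over the 9, adjusted p up to 0.908). The dpr11 call was lost in 2 of 9, without the pairing and without control pool 2. In the dpr12 and DIP-delta pair dpr12 went from 0.678 and 0.740 to 0.415 and 0.245 (-0.39 ± 0.07, adjusted p = 0.00120). None of these 3 genes had overlapping pools.

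Among the proteins that bind DIP-beta, dpr8 passed, from 0.937 and 1.087 to 0.708 and 0.428 (-0.45 ± 0.09, adjusted p = 0.00276, edgeR), as did dpr21 above. dpr9 did not, with control pools at 0.065 and 0.152 and Mettl3 RNAi pools at 0.028 and -0.038 (-0.12 ± 0.08, adjusted p = 0.378). DIP-beta itself had 0.636 and 0.604 in control and 0.521 and 0.347 in Mettl3 RNAi with SYS (-0.20 ± 0.09, adjusted p = 0.226), and passed only with NEB after HS (-0.66 ± 0.16, adjusted p = 0.0131). dpr3 was enriched, at 0.857 and 0.827 in SYS control pools, and kept 0.792 and 0.569 in Mettl3 RNAi (-0.17 ± 0.09, adjusted p = 0.242). Both dpr3 and dpr9 passed none of the tests, yet their Mettl3 RNAi pools lay below all control pools with each antibody in each state. With NEB in basal heads dpr3 had 1.173 to 1.288 in control and 0.712 to 0.899 in Mettl3 RNAi. Such separation was not counted over all genes.

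The change of enrichment with HS passed the test for few members, although most values were positive. Values above 0 were found for 24 of 32 members with SYS (50.3% of all genes) and 27 of 32 with NEB (50%). The members' medians were 0.11 and 0.14, against 0.0014 and 1e-04 over all genes. With SYS 11 members had an unadjusted p under 0.05 in edgeR. A shift of the family as a whole was not tested. In control heads the change of log2(IP/input) with HS passed the test for 2 of 32 with SYS, both upward (1.33% of all genes higher, 0.336% lower), dpr13 at 0.32 ± 0.08 and DIP-lambda at 0.49 ± 0.125, and for none with NEB (0.27% called higher, 0.03% lower), where 1 member had an unadjusted p under 0.05. DESeq2 called no member in SYS, and 1 of the 2 calls was lost without control HS pool 1, HS pool 2 or basal pool 1.

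Related surface molecules were taken from lists of the Ig family and other neuronal adhesion genes. In the same SYS basal test of Mettl3 dependence, 9.02% of all genes tested were called lower and 1.4% higher. Enrichment fell for 9 of 13 tested genes of the beat family (beat-IIIb -0.93, beat-Va -0.87), with a median of -0.56. It fell for 6 of 8 side genes, whose proteins bind Beat proteins (side -0.77, side-II -0.58), with a median of -0.38. It also fell for 5 of 14 other adhesion genes (kirre -0.75, Fas3 -0.58), with a median of -0.22. Of the 4 closest relatives of the DIPs, wrapper (-0.57) and klg (-0.22) passed, while Ama and Lac did not, and no gene of these lists passed upward.

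The next question was whether steady levels in brain differed with Mettl3 RNAi. Under basal conditions 4 of 32 members were higher in Mettl3 RNAi brains (1.58% of all genes tested), dpr3, dpr17, dpr16 and dpr2, and 2 were lower (0.607%), dpr13 and dpr1. The members' median was 0.06 against -0.01 over all genes, and the family total was 2687 ± 53.8 CPM in Mettl3 RNAi against 2657 ± 208.7 CPM in control (n = 6 each), which overlapped. The 6 neuron markers summed to 8262 to 9138 CPM in Mettl3 RNAi, within the control range. Replicates 1 to 3 and 4 to 6 differ in depth, and 1 member was called within each set, dpr3 in the first and dpr13 in the second. The members' median was 0.185 within replicates 1 to 3 and -0.041 within 4 to 6, and 21 of 31 members had the same sign in both. The changes of dpr17, dpr16, dpr2 and dpr1 kept their direction but passed within neither set.

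dpr3 had the largest rise. Its lowest, median and highest values were 67.4, 69.8 and 77.4 CPM in control and 89.5, 92.3 and 103 CPM in Mettl3 RNAi (0.42 ± 0.05 on the log2 scale, adjusted p = 0.00190, edgeR). The groups did not overlap, and an exact two-sided permutation test gave p = 0.00216, the smallest value 6 against 6 samples allow. dpr3 was picked by its rise in these samples, and this p is not adjusted over the 32 members. dpr17, dpr16, dpr2, dpr13 and dpr1 had the same p, as did DIP-delta and DIP-lambda, which edgeR did not call. The rise of dpr3 was 0.52 within replicates 1 to 3 (adjusted p = 0.0453, edgeR) and 0.34 within replicates 4 to 6 (adjusted p = 0.0704). The IP enrichment of dpr3 passed no test of Mettl3 dependence, although its Mettl3 RNAi pools lay below its control pools in each.

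dpr17 was at 63.9, 73.9 and 83.6 CPM (lowest, median, highest) in control and at 89.9, 93.3 and 95.0 CPM in Mettl3 RNAi (0.33 ± 0.06, adjusted p = 0.0134, edgeR). For dpr16 these were 29.3, 31.8 and 35.1 against 37.2, 38.2 and 41.8 CPM (0.28 ± 0.05, adjusted p = 0.0169). dpr2 rose less, from a median of 46.2 to 53.7 CPM (0.23 ± 0.05, adjusted p = 0.0299). No group pair of these overlapped, and all 3 passed the tests of Mettl3 dependence.

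dpr13 moved the other way, with 80.0, 86.4 and 93.8 CPM in control and 68.3, 72.2 and 76.8 CPM in Mettl3 RNAi (-0.27 ± 0.05, adjusted p = 0.0163, edgeR). Its change was -0.13 within replicates 1 to 3 (adjusted p = 0.311, edgeR) and -0.40 within 4 to 6 (adjusted p = 0.0215). dpr1 was at 103.3, 107.6 and 121.7 CPM against 86.0, 91.2 and 96.0 CPM (-0.26 ± 0.05, adjusted p = 0.0124). Both were among the 4 members with the largest SYS Mettl3 dependence. DIP-delta, with the largest, had a level 0.37 ± 0.10 higher that did not pass (adjusted p = 0.0808), although its 6 Mettl3 RNAi samples (71.1 to 86.0 CPM) all lay above its 6 controls (43.9 to 68.0 CPM).

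**Figure D3:**
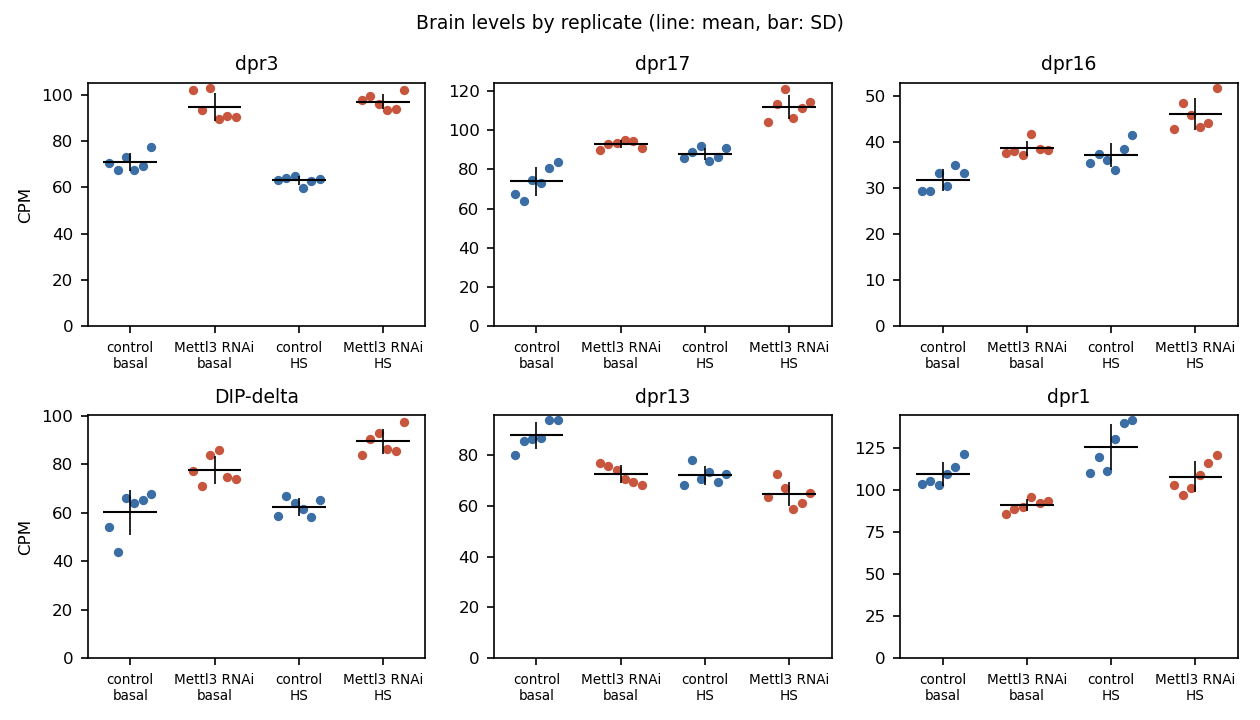
CPM in each brain replicate (y axis, from 0) of 6 members in control (blue) and Mettl3 RNAi (red) under basal conditions and after HS, 6 replicates a group. Black lines are means and bars SD. dpr3, dpr17, dpr16 and DIP-delta lie higher in Mettl3 RNAi than in control in both states, dpr13 and dpr1 lower with overlap after HS.

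After HS the Mettl3 RNAi brains differed in 10 of 31 members, 7 higher (3.6% of all genes) and 3 lower (2.72%). dpr3 was at 59.6 to 65.1 CPM in control and 93.5 to 102.1 CPM in Mettl3 RNAi (0.62 ± 0.03, adjusted p = 6.54e-07, edgeR) and DIP-delta at 58.4 to 67.1 CPM and 83.9 to 97.6 CPM (0.51 ± 0.05, adjusted p = 5.44e-05). dpr17, dpr2, dpr16, dpr21 and DIP-lambda were 0.22 to 0.35 higher, and dpr12, DIP-theta and dpr11 were 0.22 to 0.25 lower on the log2 scale. For dpr3, dpr17, dpr2 and DIP-delta the call held within replicates 1 to 3 and within 4 to 6.

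Heads were sampled apart from the brains. In basal head inputs 8 of 31 members were higher in Mettl3 RNAi (2.54% of all genes) and none lower (1.59%). DIP-delta was at 16.3 and 24.3 CPM in SYS control inputs and 28.6 and 35.2 CPM in Mettl3 RNAi, and at 15.1, 16.5 and 15.4 against 18.8, 21.6 and 27.3 CPM in NEB inputs (0.59 ± 0.12, adjusted p = 0.0252, edgeR). dpr3 (0.55 ± 0.09), dpr17 (0.52 ± 0.06) and dpr16 (0.42 ± 0.07) were higher here as in brains, and DIP-lambda, dpr8, dpr21 and dpr7 were 0.22 to 0.37 higher. Pools of the same number deviated together, and with the pool number as a block 15 members were called, all higher. The 2 SYS pools alone gave 0 calls and the 3 NEB pools alone 4, and the calls fell to 4 or 5 without NEB control replicate 1, SYS Mettl3 RNAi replicate 2 or NEB Mettl3 RNAi replicate 2.

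Loss of IP enrichment and change in level were set side by side across members. Of the 21 members that passed the SYS basal test of Mettl3 dependence, 3 were called higher and 2 lower in Mettl3 RNAi brains, and of the 11 that did not, 1 was higher and none lower. Over the 32 members the 2 measures had a Pearson r of -0.117 and a Spearman rho of -0.097. The points share genes but no libraries.

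HS moved single members in both directions and left the family total within its spread, 2716 ± 78.7 CPM after HS against 2657 ± 208.7 CPM before (n = 6 each, control brains). In control brains 7 of 31 members fell (29.2% of all genes) and 7 rose (19.7%), shares near or below that background. dpr10, a ligand of DIP-alpha, was at 60.3, 74.0 and 79.0 CPM (lowest, median, highest) in basal and 49.0, 51.3 and 55.4 CPM in HS (-0.46 ± 0.06, adjusted p = 6.18e-05, edgeR). For dpr5 the values were 29.0, 30.4 and 33.5 against 20.6, 22.1 and 24.8 CPM (-0.42 ± 0.06, adjusted p = 4.29e-05). Neither gene's groups overlapped, and both falls held within replicates 1 to 3 and 4 to 6.

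The other members that fell were dpr13, dpr20, dpr4, dpr18 and dpr3, by 0.14 to 0.26 on the log2 scale. DIP-lambda rose most, from 20.1, 23.3 and 25.0 CPM to 25.1, 27.1 and 30.4 CPM (0.29 ± 0.07, adjusted p = 0.00600, edgeR), followed by dpr17, from 63.9, 73.9 and 83.6 to 84.3, 87.6 and 92.0 CPM (0.28 ± 0.06, adjusted p = 0.00274). DIP-beta, dpr16, dpr1, DIP-epsilon and dpr8 rose by 0.18 to 0.26, and the dpr8 call (adjusted p = 0.0475, edgeR) held in 6 of 20 alternative settings, was lost in 13, with adjusted p up to 0.452, and reversed in 1. All rises depended on the scaling. With scaling by library size the median of all genes moved to -0.42 (-0.02 with the TMM scaling used here) and 27 of 31 members were lower and none higher, so the rises are relative to the other genes. The 6 neuron markers also rose in sum, from 6428 to 10120 CPM in basal to 10550 to 11950 CPM in HS without overlap. Median sums of the other marker lists were higher in HS too. Retina markers stood at 48020 against 36960 CPM and glia markers at 5138 against 4002 CPM. Muscle markers stood at 274 against 163 CPM and fat body markers at 3841 against 3619 CPM. The part of the markers in these changes was not tested.

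**Figure D4:**
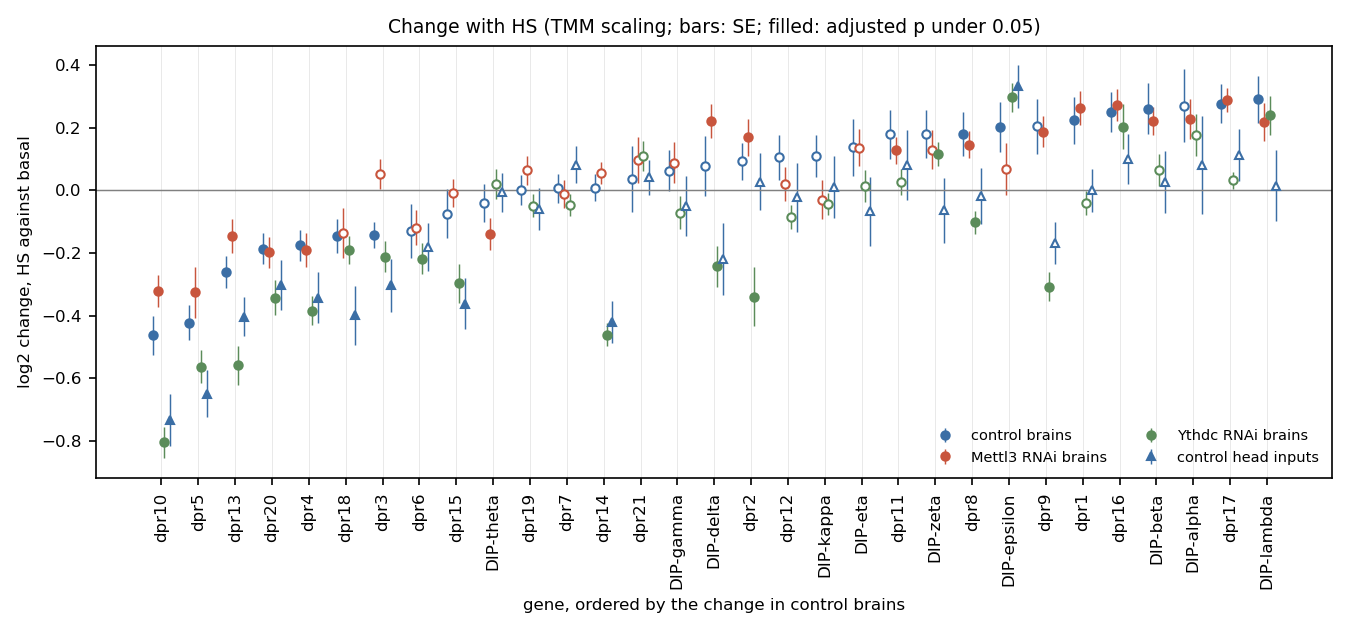
Log2 change of level with HS against basal (y axis, TMM scaling) for 31 members (x axis, ordered by the change in control brains) in control, Mettl3 RNAi and Ythdc RNAi brains (circles) and in control head inputs (triangles). Bars are SE, and filled symbols passed an adjusted p under 0.05. dpr10 and dpr5 are the lowest in control brains and head inputs.

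In Mettl3 RNAi brains 6 of 31 members fell with HS (28.2% of all genes) and 11 rose (18.3%). dpr10 fell by 0.32 ± 0.05 and dpr5 by 0.33 ± 0.08 on the log2 scale. The HS change did not differ between the genotypes for any of 32 members by edgeR (0% of 10503 genes), and 1 member, dpr3, had an unadjusted p under 0.05 (0.20 ± 0.06 higher in Mettl3 RNAi, adjusted p = 0.532). In control head inputs 9 of 31 members fell (19.6%) and 1, DIP-epsilon, rose (16.2%). dpr10 was lowest there as well, from 43.3 and 56.7 CPM to 26.4 and 31.9 CPM in SYS and from 31.3, 35.8 and 35.2 to 21.0, 20.1 and 19.8 CPM in NEB inputs (-0.73 ± 0.08, adjusted p = 0.000114, edgeR). With the SYS inputs alone no member was called.

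In control brains 19.7% of all genes tested rose with HS and 29.2% fell. Of the related lists, 9 of 14 other adhesion genes rose and 2 fell, with Fas3 at 0.57 and trn, a leucine-rich repeat protein, at -0.76. Of 13 beat genes 5 rose (beat-VI 0.46, beat-IIIc 0.46) and 1 fell, and 3 of 8 side genes rose (side-III 0.47, side-VII 0.39). The medians of these lists were 0.39, 0.12 and 0.23, beside 0.08 for the dpr and DIP genes. Of the 4 closest relatives of the DIPs 1 rose and none fell, with a median of 0.23.

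After recovery few members differed from basal. At 6 h 2 of 31 members were lower than in basal control brains of replicates 1 to 3 (2.95% of all genes) and none higher (3.86%). DIP-lambda was at 20.2, 20.1 and 22.2 CPM in basal, at 8.50 and 9.62 CPM at 6 h and at 21.3, 21.1 and 20.5 CPM at 24 h. This fall of 1.17 ± 0.11 on the log2 scale (adjusted p = 0.00271, edgeR) was the largest change of level of any member with HS or recovery. dpr21 was at 51.7, 51.3 and 57.1 CPM in basal, 34.4 and 37.8 CPM at 6 h and 61.4, 53.9 and 60.2 CPM at 24 h (-0.53 ± 0.10 at 6 h, adjusted p = 0.0238), and 1 of the 2 calls was lost without 6 h replicate 1, 6 h replicate 2 or basal replicate 1.

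In Mettl3 RNAi brains 1 of 32 members was called at 6 h, again DIP-lambda and lower (1.15% of all genes lower, 0.892% higher), at 26.9, 27.3 and 31.6 CPM in basal, 14.3, 13.7 and 14.9 CPM at 6 h and 28.9, 26.1 and 28.7 CPM at 24 h (-1.001 ± 0.085, adjusted p = 0.0146, edgeR). The groups did not overlap, but no member was called without 6 h replicate 1, 2 or 3, without basal replicate 3 or with the replicate number as a block, and 2 were called without basal replicate 2. dpr21 was at 48.2, 50.5 and 56.2 CPM at 6 h against 60.9, 61.2 and 67.1 CPM (-0.29 ± 0.08, adjusted p = 0.106). At 24 h no member was called in either genotype by edgeR (0.0409% of all genes higher and 0.194% lower in control, 0% in Mettl3 RNAi), with 2 members at an unadjusted p under 0.05 in each, and 2 members were called in Mettl3 RNAi without basal replicate 2.

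**Figure D5:**
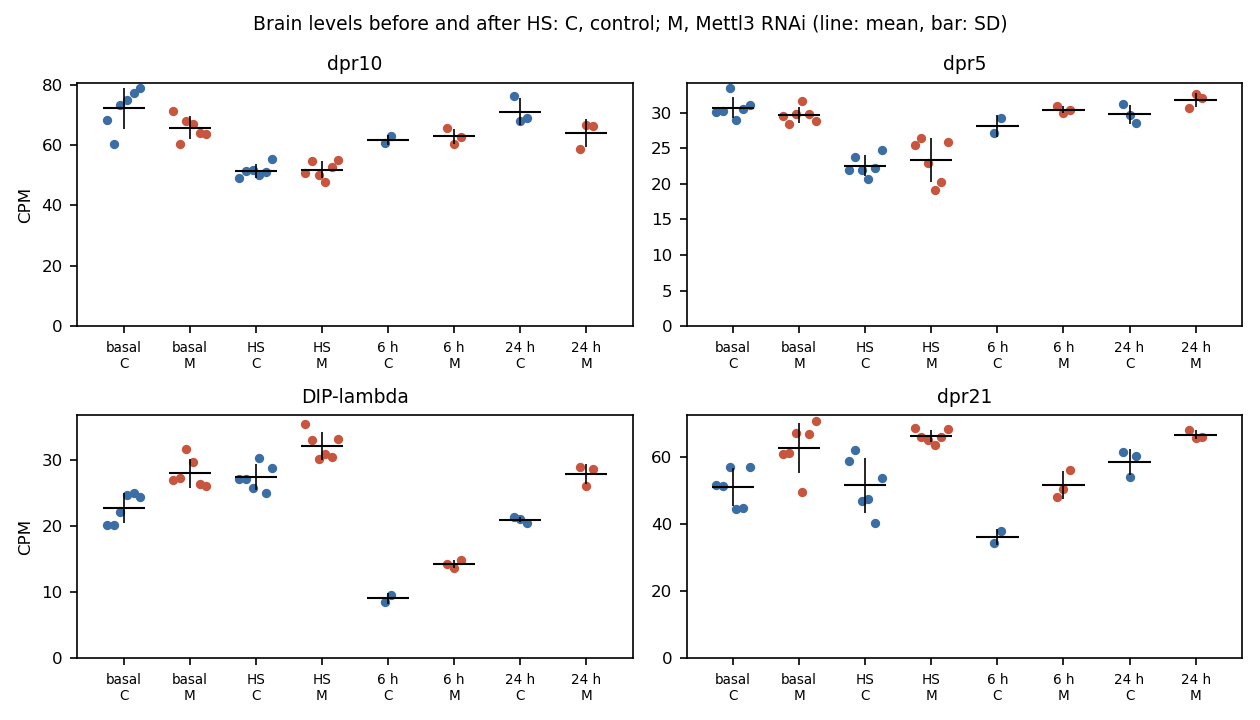
CPM in each brain replicate (y axis, from 0) of dpr10, dpr5, DIP-lambda and dpr21 in basal, HS and after 6 h and 24 h of recovery, with control (C) in blue and Mettl3 RNAi (M) in red. Black lines are means and bars SD. dpr10 and dpr5 are lowest directly after HS, and DIP-lambda at 6 h, where it is at 8.50 and 9.62 CPM in control.

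Finally, brains with less of the reader were compared with their own controls. In basal Ythdc RNAi brains no member of 31 was called by edgeR (0.774% of all genes higher, 3.11% lower), while 15 had an unadjusted p under 0.05 and 27 of 31 values were positive (49.1% of all genes). DESeq2 called 7, all higher. The result turned on 1 control library, replicate 8, without which 8 members were called higher. The share of all genes called was not recorded for the DESeq2 fit or without replicate 8, so these counts have no background beside them. In control replicate 8 dpr8 was at 44.8 CPM against 84.8 and 84.9 CPM in the other controls and 112.6, 119.9 and 112.9 CPM in Ythdc RNAi. The family total was 1503 to 1780 CPM in control and 1961 to 2092 CPM in Ythdc RNAi, and the 6 neuron markers summed to 4120 to 5666 CPM and 5752 to 6193 CPM in these groups. The family total was lowest in replicate 8 (1503 CPM). The part of the neuron markers in the difference was not tested.

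After HS 4 of 31 members differed in Ythdc RNAi brains. dpr3, dpr18 and dpr21 were higher (2.45% of all genes) and dpr10 was lower (2.85%). dpr3 was at 50.5, 46.6 and 47.1 CPM in control and 55.5, 57.2 and 58.4 CPM in Ythdc RNAi (0.23 ± 0.04, adjusted p = 0.0342, edgeR), and dpr18 at 68.7, 68.3 and 65.0 against 79.5, 81.1 and 86.4 CPM (0.27 ± 0.04, adjusted p = 0.0202). dpr10 was at 35.3, 36.7 and 32.3 CPM in control and 28.8, 29.8 and 29.7 CPM in Ythdc RNAi (-0.26 ± 0.05, adjusted p = 0.0404). The groups did not overlap for any of these genes, but no call remained when any Ythdc RNAi library, or control replicate 7 or 8, was left out.

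With HS, 14 of 31 members fell (32.8% of all genes) and 4 rose (25.8%) in Ythdc RNAi brains, and 2 fell (13.5%) and none rose (5.22%) in the controls of that experiment, a difference between genotypes that was not tested. dpr10 went from 52.3, 52.7 and 47.0 CPM to 28.8, 29.8 and 29.7 CPM in Ythdc RNAi (-0.81 ± 0.05, adjusted p = 7.87e-05, edgeR), and from 50.0, 38.8 and 50.1 CPM to 35.3, 36.7 and 32.3 CPM in control (-0.41 ± 0.13, adjusted p = 0.0651). dpr5 and dpr13 fell in both genotypes. In the controls the count was 11 without basal replicate 8, 0 without any HS library and 1 without basal replicate 7 or 9. The falls of dpr10 and dpr5 were thus measured in the brains of the Mettl3 experiment, in head inputs and in Ythdc RNAi brains.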

How the data were processed

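Libraries were made from brains and from heads of fly pools. The authors trimmed reads with Trim Galore, mapped them with STAR 2.7.3a to dm6 and counted them over gene exons of the FlyBase annotation with summarizeOverlaps in union mode. The deposited values are raw counts per gene, not normalized and not pooled, in 1 table of 17562 genes and 87 libraries, each mapped to its sample by the column name, with 0 columns of other series. The authors used DESeq2 on these counts. Since the IP libraries were counted over whole genes, enrichment here is per gene and does not show where in a transcript m6A lies.

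Tests were run on the deposited counts with edgeR 4.0.16 in R 4.3.3: TMM scaling, filterByExpr with a minimum count of 10 and a minimum total of 15, the quasi-likelihood test, and Benjamini-Hochberg adjustment over all genes tested in each of 23 comparisons, with calls at an adjusted p under 0.05. SE is the log2 fold change over the root of F. CPM are TMM-scaled within the brains of each experiment and within each antibody's libraries, and log2 ratios of IP to input used a prior count of 0.5. Because IP and input were scaled together, a log2 ratio of 0 is relative to the other genes and not an absolute equality with input. IP tests held the RNA pool as a block, since the input was set aside from the same RNA, and tests of head inputs held the experiment. Recovery was tested against basal replicates 1 to 3. Single members were also tested by an exact permutation test over 6 against 6 samples. Positions and untranslated regions are from the Ensembl BDGP6 annotation, and all 32 members matched. Figures used matplotlib 3.10.9 in Python 3.11.15. Some of the edgeR tests were also run on counts simulated from edgeR's own fits. Such a run checks the code and not whether the model suits these data.

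Same-numbered libraries deviated together between basal and HS control brains (r from 0.286 to 0.688 over 6 pairs) and HS and basal Mettl3 RNAi brains (0.117 to 0.691). Centred within replicates 1 to 3 and 4 to 6, r ran from -0.09 to 0.43 (median 0.046) in control and from -0.237 to 0.619 (median 0.119) in Mettl3 RNAi brains. Same-numbered pools also deviated together in head inputs (0.646 for the pair that 2 SYS pools give, 0.156 to 0.333 with NEB for Mettl3 RNAi against control, and 0.103 and 0.173 to 0.222 for HS against basal). The source is this check, not the labels. Alternatives changed the tool (DESeq2 1.42.0), scaling, filter, block, antibody and replicates. A restriction to replicates 1 to 3 or 4 to 6 was added after the data had been seen. The study lists its libraries as biological replicates and also mentions technical repeats, and the labels do not tell which brain samples came from separate crosses, so p-values measure the spread between these samples, which may be technical in part.

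The members and lists were chosen with earlier results of these data known. All members may be named. The value of every sample, or the range, was given for up to 4 called members with the largest change in the main comparisons, for known Dpr and DIP pairs and for the highest and lowest members, and other lists by up to 2 called genes, and any other member shown in full was chosen after its values were seen. Marker lists held 6 neuron, 6 glia, 8 retina, 6 muscle and 5 fat body genes. In basal control brains the glia, muscle and fat body sums were 3542 to 4381, 59.0 to 415.3 and 2119 to 5235 CPM, and in Mettl3 RNAi brains they were 3164 to 4607, 42.4 to 1291 and 1736 to 5181 CPM.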

Additional observations from a re-analysis of the deposited data

Results flagged for a closer look

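Within groups of 6 brain samples, 8 of 128 sets of values had a sample farther from the rest than Dixon's criterion allows, and chance alone flags about 1 in 20 groups. In control HS brains replicate 4 was low for dpr4 (83 CPM, the others 94.28 to 98.35) and for dpr12 (356.4 CPM, the others 385.4 to 394.8). Replicate 1 was low for dpr15 (49.41 CPM, the others 55.65 to 59.12) and replicate 6 was high for DIP-alpha (38.94 CPM, the others 32.03 to 34.17). In Mettl3 RNAi basal brains replicate 4 was high for dpr16 (41.8 CPM, the others 37.17 to 38.56) and replicate 3 for DIP-kappa (64.99 CPM, the others 55.46 to 58.84). In Mettl3 RNAi HS brains replicate 6 was high for dpr6 (60.74 CPM, the others 53.55 to 56.14) and replicate 1 was low for DIP-alpha (27.28 CPM, the others 30.86 to 32.43).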

How the results depend on the processing

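Of the alternative counts of called members, 248 stayed within 1.5 times the count reported and 60 did not, and of 299 alternative values for named members 251 kept direction and call, 44 lost the call and 4 reversed. The share of all genes called was not recorded under the alternative settings, so their counts stand without that background. Scaling by library size gave 27 called members for HS in control brains, 30 in Ythdc RNAi brains, 11 in the controls of that experiment, 21 in head inputs and 3 at 6 h in Mettl3 RNAi. It reversed the HS change in control brains of DIP-lambda (-0.1041), dpr17 (-0.1173), dpr8 (-0.2137) and DIP-beta (-0.134). DESeq2 called 7 members for Ythdc RNAi in basal and 9 in HS brains, 4 for HS in the Ythdc controls, 2 at 6 h in Mettl3 RNAi and 0 for the HS change of SYS enrichment. For that last count median-of-ratios scaling gave 4, no filter on low counts 5 and no replicate block 0, and median-of-ratios scaling gave 1 for HS in the Ythdc controls.

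Replicates 1 to 3 and 4 to 6, a split chosen after seeing the data, gave 9 and 8 calls for HS in control brains, 9 and 7 in Mettl3 RNAi brains, 1 and 1 for Mettl3 RNAi in basal and 6 and 4 in HS brains. All 6 basal replicates gave 1 call at 6 h in control. SYS inputs alone gave 0 calls for Mettl3 RNAi and 0 for HS, and NEB inputs alone 4 for Mettl3 RNAi. With the replicate block, 15 members were called for Mettl3 RNAi in head inputs, 2 for Mettl3 RNAi in basal brains (numbers that do not pair, r from -0.14 to 0.517), 1 for HS in the Ythdc controls and 0 at 6 h in Mettl3 RNAi. Without the replicate block of pools, SYS gave 13 calls for enrichment and 0 for Mettl3 dependence in basal and 0 in HS. The cause of these shifts was not tested. In all other comparisons the block kept the count within 1.5 times.

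Leaving out 1 library in turn gave 1 to 2 calls at 6 h in control, 0 to 2 at 6 h and 0 to 2 at 24 h in Mettl3 RNAi, 0 to 8 for Ythdc RNAi in basal and 0 to 3 in HS brains, 0 to 11 for HS in the Ythdc controls, 4 to 11 for Mettl3 RNAi in head inputs and 1 to 2 for the HS change of SYS enrichment. Mettl3 dependence ranged from 16 to 23 (SYS basal), 18 to 24 (SYS HS), 21 to 24 (NEB basal) and 21 to 23 (NEB HS). SYS enrichment could not be fitted with 1 pool. No paired analysis was possible for Ythdc RNAi against control because these groups share no replicate numbers. SYS has 2 pools and the NEB IPs few reads, so small losses of enrichment of low members such as DIP-alpha and DIP-iota could not be detected.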
